A study of Rattus norvegicus with 14 samples.

Results

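The genes described here encode the last enzymes on the way to testosterone and the enzyme that converts it further: Hsd3b1 and Hsd3b3 (3-beta-hydroxysteroid dehydrogenases), Hsd17b3 (17-beta-hydroxysteroid dehydrogenase 3) and Srd5a1 (steroid 5-alpha-reductase 1). They were chosen by name, for their place in the pathway and with earlier results of these data known. They make up 4 of the 18174 genes in the count table, and all 4 passed the filter on low counts that left 12719 genes for testing. The RNA came from fetal rat testes. Pregnant Harlan Sprague Dawley dams received either corn oil, the vehicle, or dicyclohexyl phthalate (DCHP, a phthalate plasticizer) in corn oil by gavage each day from gestational day 14 to 18, and the male fetuses' testes were dissected on day 18. The groups were vehicle, 100, 300 and 600 mg/kg/day with 3 litters each and 900 mg/kg/day with 2 litters. All testes left in a litter after a few had been set aside for hormone measurement were pooled, so a library stands for 1 litter and the cells of the testis are mixed. The assay was TempO-Seq, in which paired DNA probes that lie next to each other on an RNA are ligated and the ligated probes are counted.

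In the fetal testis Leydig cells make androgens from cholesterol. CYP11A1 cuts the cholesterol side chain to give pregnenolone, and 3-beta-hydroxysteroid dehydrogenase then moves a double bond and oxidises the 3-hydroxyl group, turning inactive delta-5 steroids such as pregnenolone into delta-4 steroids such as progesterone. CYP17A1 makes androstenedione, which HSD17B3 reduces to testosterone, and 5-alpha-reductase turns testosterone into dihydrotestosterone, the stronger androgen that masculinises the external genitalia. In the mouse, Hsd17b3 is known to be made by Sertoli cells in the fetal testis and by Leydig cells in the adult.

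Hsd3b3 and Hsd3b1 are near copies that lie beside each other. On rn7, as the files give the coordinates, Hsd3b3 (ENSRNOG00000063905) spans positions 186138044 to 186144034 of chromosome 2 and Hsd3b1 (ENSRNOG00000070622) positions 186169863 to 186176000, both on the minus strand. The further copy Hsd3b2 spans positions 186095897 to 186101853 on the same strand. The sequences around the start of each gene, from 250 bases before to 50 bases after it, are shown because they let a reader see how alike the first 2 copies are; they come from RefSeq on the build GRCr8, matched by symbol, and all 4 genes had an entry. The window of Hsd3b3 is chr2:188832685-188832984 and that of Hsd3b1 is chr2:188864645-188864944, both on the minus strand and written 5' to 3', with the only base that differs in capitals.
Hsd3b3: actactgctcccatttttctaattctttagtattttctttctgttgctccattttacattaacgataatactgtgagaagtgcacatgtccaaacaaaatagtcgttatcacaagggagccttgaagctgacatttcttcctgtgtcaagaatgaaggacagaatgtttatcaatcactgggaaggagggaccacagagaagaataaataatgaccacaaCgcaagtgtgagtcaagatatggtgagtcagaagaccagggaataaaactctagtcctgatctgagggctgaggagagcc
Hsd3b1: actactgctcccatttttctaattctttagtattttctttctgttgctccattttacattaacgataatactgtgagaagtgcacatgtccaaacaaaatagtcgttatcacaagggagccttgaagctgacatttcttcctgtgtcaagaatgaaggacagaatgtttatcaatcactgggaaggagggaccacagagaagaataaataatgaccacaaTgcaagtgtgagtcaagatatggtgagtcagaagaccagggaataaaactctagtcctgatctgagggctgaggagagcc
The windows are identical at 299 of 300 bases, and the difference is C221T, with the base of Hsd3b3 first and positions counted from the first base of the window. Aligned with the same window of Hsd3b2, the Hsd3b3 window is 46.4% identical. RefSeq lists Hsd3b1 as an older name of Hsd3b2, so the symbols of the 3 copies are not used alike by all annotations, and the values here are those of the Ensembl identifiers above.

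The Hsd3b1 row of the table was a fixed share of the Hsd3b3 row. The estimated counts of Hsd3b3 ran from 11908 to 55056 over the 14 libraries and those of Hsd3b1 from 10.1 to 46.6, and neither was made of whole numbers: Hsd3b1 was fractional in 14 and Hsd3b3 in 13 of 14 libraries. In every library Hsd3b1 stood at between 0.846 and 0.851 counts for each 1000 counts of Hsd3b3, with a median of 0.850 and a coefficient of variation of 0.164%. The square root of the Hsd3b1 count, which is the scatter that counting alone gives to independently counted reads, was between 14.7% and 31.4% of that count. The 3 vehicle litters lay at 0.8462 to 0.8475 per 1000 and the 11 treated litters at 0.8499 to 0.8506, so the groups did not overlap, and the gap between them is wider than the spread within either. The 3 vehicle litters also had the highest counts of both rows. Among the treated litters the ratio went with the Hsd3b3 count as well. It was 0.8504 to 0.8506 in those with up to 20322 counts and 0.8499 in those with 21532 to 30763 counts, and both sets held litters at 100 and at 900 mg/kg/day. The gap between vehicle and treated litters therefore cannot be told apart from a difference in counts.

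Among rows with enough counts to compare, no other row followed either gene as closely. The SD of the natural log of the ratio was 0.00164 for Hsd3b1 with Hsd3b3, and the next steadiest partner of each was Inha, the inhibin alpha subunit, at 0.103. Hsd3b2, another low row, did not follow Hsd3b3 in this way. Its counts ran from 4.01 to 25.1, and its ratio to Hsd3b3 ran from 0.199 to 1.76 per 1000, with a coefficient of variation of 73.7%. The ratio of 1.76 was that of replicate 1 at 900 mg/kg/day alone. In the other litters Hsd3b2 reached at most 0.641 per 1000. Its values lay only 0.0075 to 0.062 above a whole number, those of Hsd17b3 0.01 to 0.08 above one, and Srd5a1 was whole in every library, all to the digits that the table gives. Hsd3b1 is therefore printed below for completeness and is not counted as a measurement separate from Hsd3b3. How the fractional values were made is not given in the sources used here, and the probes behind each row were not analysed here.

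**Figure D1:**
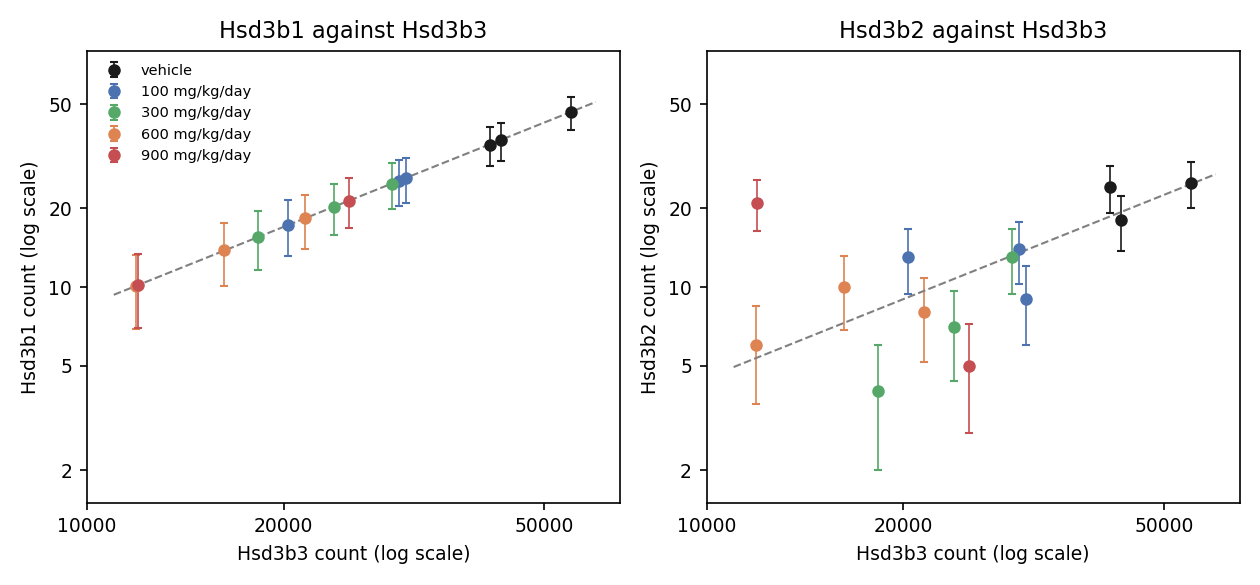
Estimated counts of Hsd3b1 (left) and Hsd3b2 (right) against those of Hsd3b3, on log axes, with 1 point a litter coloured by dose group, bars of plus or minus the square root of the count, and a dashed line at the median ratio. The Hsd3b1 points lie on the line, at 0.846 to 0.851 counts per 1000 of Hsd3b3, while the Hsd3b2 points spread from 0.199 to 1.76 per 1000.

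Hsd3b3, the 3-beta-hydroxysteroid dehydrogenase that carried nearly all the reads of the pair, was lower in every treated litter than in every vehicle litter, and its mean level was lower at each higher dose. Levels are CPM, the count scaled to a library of fixed size after TMM normalization. The vehicle litters had 4100, 5475 and 4904 CPM. At 100 mg/kg/day the litters had 2652, 3903 and 3055 CPM, at 300 mg/kg/day 3132, 2927 and 2743 CPM. The litters at 600 mg/kg/day had 2690, 2520 and 2199 CPM, and the 2 litters at 900 mg/kg/day had 1438 and 2159 CPM. None of the 11 treated litters reached the lowest vehicle litter, which was replicate 1, and the highest treated value was 3903 CPM, in a litter of the lowest dose. The litters at 100 and 300 mg/kg/day overlapped. The lowest litter at 300 and the highest at 600 mg/kg/day were close, at 2743 and 2690 CPM. So were the lowest at 600 and the highest at 900 mg/kg/day, at 2199 and 2159 CPM. Steps between neighbouring doses were not tested, and how many of all tested genes separate at these steps was not counted. In pooled whole testes, fewer cells that express the gene and less of its RNA in each of them cannot be told apart.

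The mean level of Hsd3b3 was 4827 ± 691 CPM (SD, n = 3) in vehicle litters, 3203 ± 639 (n = 3) at 100, 2934 ± 194 (n = 3) at 300, 2470 ± 249 (n = 3) at 600 and 1799 ± 510 CPM (n = 2) at 900 mg/kg/day. As shares of the vehicle mean these are 66.4%, 60.8%, 51.2% and 37.3%. The fold changes below are log2 values, each with its standard error, taken from the edgeR quasi-likelihood fit, and p-values are adjusted by Benjamini-Hochberg over all 12719 genes with a threshold of 0.05. Hsd3b3 fell at 600 mg/kg/day (log2 fold change -0.97 ± 0.17, adjusted p = 0.0433) and at 900 mg/kg/day (-1.42 ± 0.20, adjusted p = 0.00805). At 100 mg/kg/day its log2 fold change was -0.59 ± 0.17, with an unadjusted p of 0.00425 and an adjusted p of 0.9999, and at 300 mg/kg/day it was -0.72 ± 0.17, with an unadjusted p of 0.00106 and an adjusted p of 0.448. Over dose Hsd3b3 fell by 0.136 ± 0.021 log2 units for each 100 mg/kg/day (adjusted p = 0.00482), a fit that takes the fall as straight on the log2 scale.

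The call at 600 mg/kg/day was close to the threshold: it was lost in 9 of the 14 fits that leave out a library, with adjusted p up to 0.319, and held without vehicle replicate 1, without replicate 1 or 2 at 100 mg/kg/day, and without either litter at 900 mg/kg/day. The call at 900 mg/kg/day was lost without replicate 1 of that dose (log2 fold change -1.15, adjusted p = 0.218), the litter with the lowest level. Both calls were also lost when only the 2 groups compared entered the fit (adjusted p = 0.0723 and 0.188), and that at 600 mg/kg/day with RLE or upper quartile scaling. The slope passed in all 14 such fits, with adjusted p from 0.00101 to 0.0335.

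**Figure D2:**
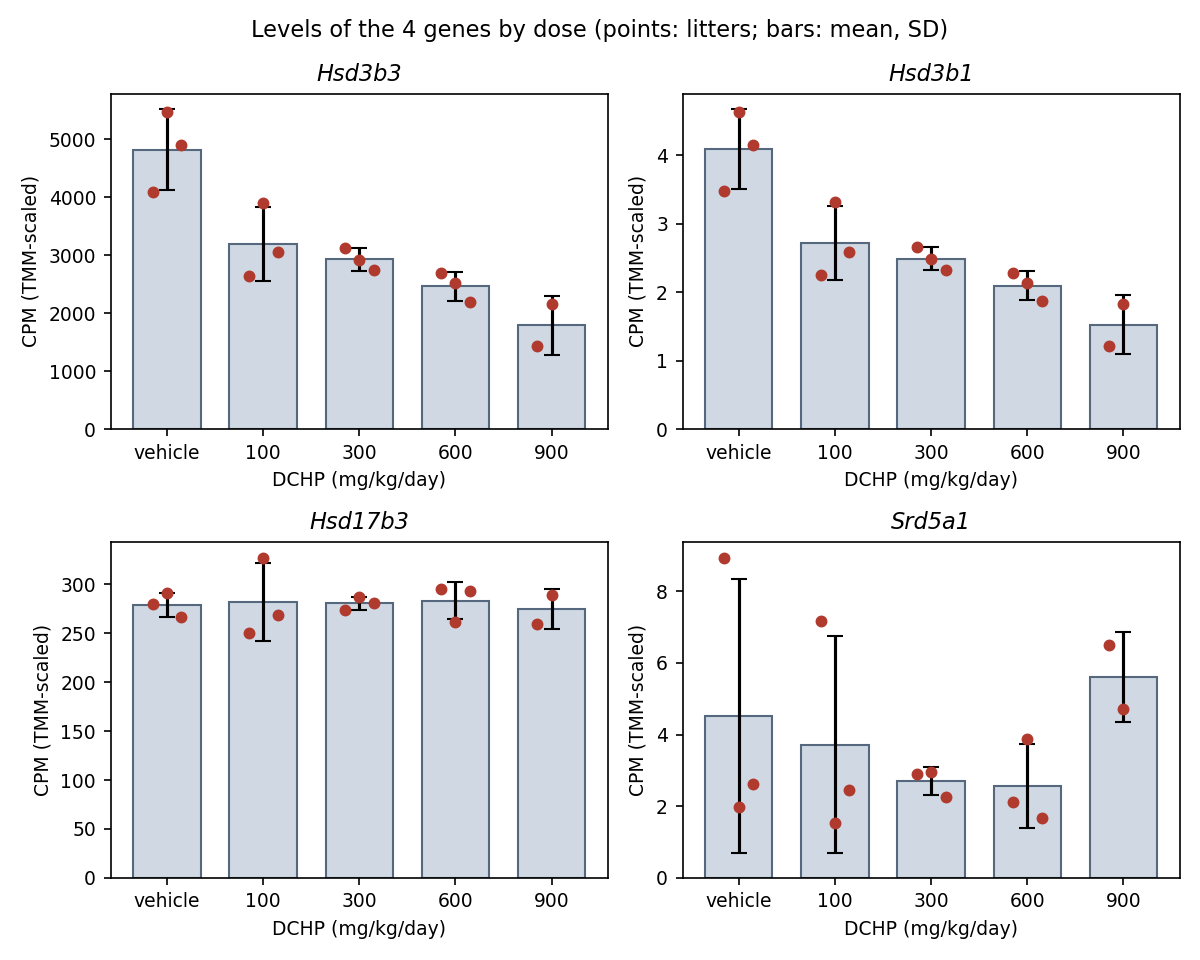
Level of each gene in CPM by dose in mg/kg/day, in a panel of its own with an axis that starts at 0; bars are group means with their SD and points are litters (n = 3, and n = 2 at 900). Hsd3b3 steps down from 4827 to 1799 CPM and Hsd3b1 from 4.09 to 1.53 CPM, Hsd17b3 stays between 275 and 283 CPM, and the Srd5a1 litters of a group lie far apart.

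Few genes were called at any dose, and the members' calls stand against that background. At 600 mg/kg/day 1 of the 4 genes fell, where 0.189% of all tested genes fell, and at 900 mg/kg/day 1 of 4 fell, where 0.204% did. Over dose 2 of the 4 genes fell, where 0.33% of all tested genes did; the second is Hsd3b1, so both calls rest on the reads of Hsd3b3. At 300 mg/kg/day edgeR called 0 of the 4 genes, where 0.0472% of all genes fell, and at 100 mg/kg/day it called 0 of the 4 and 0% of all genes. At both of these doses 2 of the 4, the Hsd3b pair, had an unadjusted p under 0.05 in edgeR, as did 3.4% and 3.65% of all tested genes at 100 and 300 mg/kg/day, and DESeq2 and limma-voom called 0 of the 4 as well. Litters of a dose that all lie below every vehicle litter were found for 2 of the 4 genes, the Hsd3b pair, at each dose, and for 3.01%, 4.5%, 5.94% and 8.86% of all tested genes at 100, 300, 600 and 900 mg/kg/day. Wherever the pair is counted here as 2 of the 4, both rows rest on the reads of Hsd3b3, so the count stands for 1 measurement.

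Hsd3b1 gave nearly the same fold changes as Hsd3b3 at a far lower level. Its mean was 4.09 ± 0.58 CPM (SD, n = 3) in vehicle litters, 2.72 ± 0.54 (n = 3), 2.49 ± 0.16 (n = 3), 2.10 ± 0.21 (n = 3) and 1.53 ± 0.43 CPM (n = 2) at the rising doses. The log2 fold changes were -0.58 ± 0.25, -0.70 ± 0.25, -0.95 ± 0.26 and -1.42 ± 0.30, and none passed in edgeR's test (adjusted p = 0.433 at 600 and 0.105 at 900 mg/kg/day). Its slope over dose passed narrowly, at -0.137 ± 0.028 log2 units for each 100 mg/kg/day (edgeR adjusted p = 0.0433), and was lost in 13 of 14 fits without a library, with adjusted p up to 0.230, holding only without replicate 1 at 100 mg/kg/day. Read as a separate gene, Hsd3b1 would look less affected than Hsd3b3 at 600 and 900 mg/kg/day by its calls, while its log2 fold changes there are -0.95 and -1.42 beside -0.97 and -1.42.

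Hsd17b3 (ENSRNOG00000019096), which makes testosterone from androstenedione, had a mean level of 275 to 283 CPM in all 5 groups and no call at any dose. It lies on chromosome 17, plus strand, from position 1027229 to 1058555 on rn7. The vehicle litters had 280, 291 and 267 CPM. At 100 mg/kg/day the litters had 251, 327 and 269 CPM, at 300 mg/kg/day 274, 287 and 281 CPM. At 600 mg/kg/day they had 295, 261 and 293 CPM, and at 900 mg/kg/day 260 and 290 CPM. Of the 11 treated litters 3 lay below the lowest vehicle litter and 3 above the highest, and the widest spread was among the litters at 100 mg/kg/day.

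The group means of Hsd17b3 were 279 ± 12.4 CPM (SD, n = 3) in vehicle litters and 282 ± 39.9 (n = 3), 281 ± 6.75 (n = 3), 283 ± 19.0 (n = 3) and 275 ± 20.8 CPM (n = 2) at the rising doses. The log2 fold changes were 0.016 ± 0.108, 0.009 ± 0.108, 0.021 ± 0.108 and -0.022 ± 0.121, and none passed (edgeR adjusted p of 0.966 or higher). The sign of each of these values turned under at least one other setting, so they carry no direction. At 900 mg/kg/day the 95% interval of the log2 fold change ran from -0.28 to 0.24, which is a ratio to vehicle between 0.822 and 1.18. The ratio of Hsd3b3 at that dose, 0.373, lies outside this interval. At 100, 300 and 600 mg/kg/day the intervals of the ratio were 0.860 to 1.19, 0.856 to 1.18 and 0.863 to 1.19. The slope over dose was -0.0016 ± 0.0103 log2 units for each 100 mg/kg/day (edgeR adjusted p = 0.9999).

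**Figure D3:**
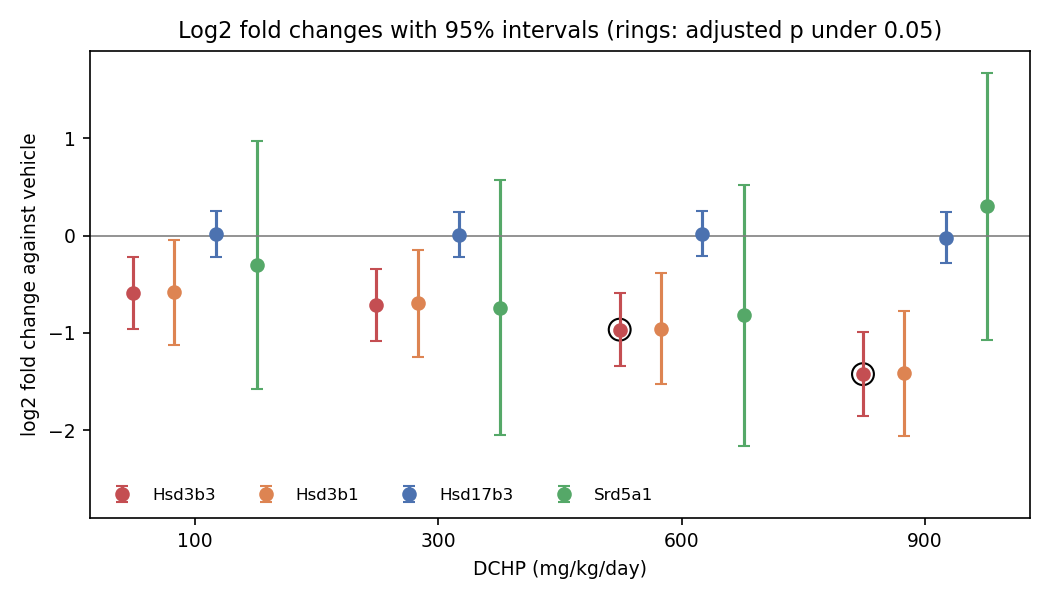
Log2 fold change from vehicle of each gene at each dose in mg/kg/day, with 95% intervals from edgeR's fit over 14 libraries; rings mark an adjusted p under 0.05. Only Hsd3b3 at 600 and 900 mg/kg/day is ringed, Hsd17b3 lies between -0.022 and 0.021, and the intervals of Srd5a1 are the widest, from -1.07 to 1.67 at 900 mg/kg/day.

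The start of Hsd17b3 is the only one of the 4 windows with the letters AGGTCA, the core letters that steroidogenic factor 1 and other nuclear receptors bind; it is printed because it differs in this from the Hsd3b windows above. The window is chr17:1032708-1033007 on the plus strand of GRCr8, with the match in capitals, on the forward strand from base 267 of the window, which lies after the annotated start and so within the transcribed part.
Hsd17b3: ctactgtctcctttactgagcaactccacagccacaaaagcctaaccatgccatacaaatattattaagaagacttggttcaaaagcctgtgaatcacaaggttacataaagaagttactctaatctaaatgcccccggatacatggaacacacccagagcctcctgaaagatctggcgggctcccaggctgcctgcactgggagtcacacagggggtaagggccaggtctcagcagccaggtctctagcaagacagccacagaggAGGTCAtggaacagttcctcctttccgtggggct
Both strands were searched, and 16.2% of 33469 rat promoter windows of the same length hold the letters. A match of 6 letters is a description of the window and not a site.

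Within a library the ratio of Hsd3b3 to Hsd17b3 went down with dose, so these 2 steps of the pathway did not move together. This ratio does not depend on how libraries are scaled. Its mean on the log2 scale was 4.10 ± 0.20 (SD, n = 3) in vehicle litters, 3.50 ± 0.09 (n = 3) at 100, 3.38 ± 0.12 (n = 3) at 300, 3.12 ± 0.19 (n = 3) at 600 and 2.68 ± 0.31 (n = 2) at 900 mg/kg/day. The lowest vehicle litter stood at 3.87 and the highest litter at 100 mg/kg/day at 3.58, so the log2 ratio was lower in 11 of 11 treated litters. Its slope was -0.133 log2 units for each 100 mg/kg/day. A two-sided permutation test of the slope over 14 libraries with 100000 resamples gave p = 3e-05, and 9e-05 after Benjamini-Hochberg adjustment over the 6 pairs of the 4 genes. With Hsd3b1 and Hsd3b3 summed, which leaves 3 pairs, the slope was also -0.133 and the adjusted permutation p also 9e-05.

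The other pairs add little. Hsd3b1 against Hsd17b3 had a slope of -0.129 (adjusted permutation p = 9e-05) and repeats the same reads. Against Srd5a1 the slopes were -0.170 for Hsd3b3 and -0.166 for Hsd3b1 (adjusted permutation p = 0.0744 for both) and -0.037 for Hsd17b3 (adjusted permutation p = 0.628), and none passed over 14 libraries. For Hsd3b1 against Hsd3b3 the slope was 0.0042 (adjusted permutation p = 0.00644). This value comes with the 0.5 added to each count before taking the logarithm, which is a larger share of the smaller count, and it became 0.0143 with 2 added.

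**Figure D4:**
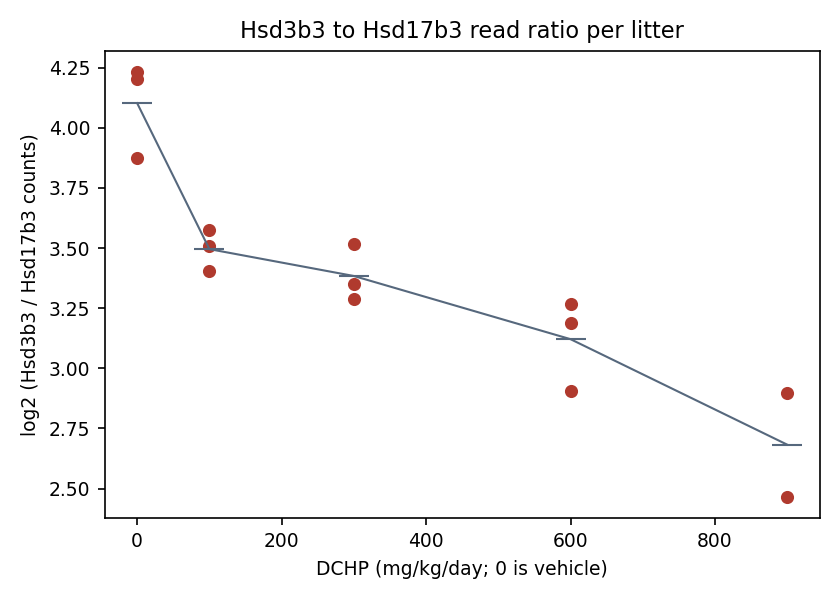
Log2 ratio of the Hsd3b3 count to the Hsd17b3 count, each plus 0.5, in each litter by dose in mg/kg/day, with a line through the group means. The means step down from 4.10 in vehicle litters to 2.68 at 900 mg/kg/day, and no treated litter reaches the lowest vehicle litter at 3.87.

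Srd5a1 (ENSRNOG00000017601), which makes dihydrotestosterone and in the rat is known from immature Leydig cells after birth, was weakly detected and had no call at any dose. It lies on chromosome 1, plus strand, from position 33686391 to 33720462 on rn7, and had 9 to 90 counts a library. The vehicle litters had 8.93, 1.99 and 2.63 CPM. At 100 mg/kg/day the litters had 7.18, 1.52 and 2.44 CPM, at 300 mg/kg/day 2.89, 2.94 and 2.25 CPM. At 600 mg/kg/day they had 2.12, 3.88 and 1.66 CPM, and at 900 mg/kg/day 6.49 and 4.72 CPM. Replicate 1 of the vehicle and of 100 mg/kg/day stood far above the other litters of their groups, by more than the groups differed from each other.

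The group means of Srd5a1 were 4.51 ± 3.83 CPM (SD, n = 3) in vehicle litters and 3.71 ± 3.03 (n = 3), 2.69 ± 0.39 (n = 3), 2.56 ± 1.17 (n = 3) and 5.61 ± 1.25 CPM (n = 2) at the rising doses. The log2 fold changes were -0.30 ± 0.59, -0.74 ± 0.61, -0.82 ± 0.62 and 0.30 ± 0.64, and none passed (edgeR adjusted p of 0.901 or higher). At 900 mg/kg/day the 95% interval of the ratio to vehicle ran from 0.475 to 3.19, an interval that holds both a ratio of 0.5 and a ratio of 2. The slope over dose was 0.014 ± 0.060 log2 units for each 100 mg/kg/day (edgeR adjusted p = 0.9999).

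The level of Srd5a1 went with the main axis along which the libraries differ, an axis that does not order them by dose. That axis holds 36.1% of the variance over all tested genes, so following it is not particular to Srd5a1. How many genes follow it as closely was not counted. On the first principal component of log2 CPM, vehicle replicate 1, replicate 1 at 100 mg/kg/day and both litters at 900 mg/kg/day scored below -20, and the other 10 libraries scored from -1.84 to 35.6. Those 4 libraries had the 4 highest levels of Srd5a1, from 4.72 to 8.93 CPM, and the other 10 had 1.52 to 3.88 CPM. For Hsd3b3 the same 4 libraries, in the order named, had 4100, 2652, 1438 and 2159 CPM. The first 2 of these are the lowest Hsd3b3 litters of their groups, and both 900 mg/kg/day litters lie at this end of the axis, so for Hsd3b3 as for Srd5a1 the axis and the dose cannot be told apart at 900 mg/kg/day. Hsd17b3 had 280, 251, 260 and 290 CPM in them, and its lowest 2 levels of all 14 libraries are among these. As a description over 14 libraries that share their doses, Pearson's r with the score was -0.94 for Srd5a1, 0.61 for Hsd17b3 and 0.39 for Hsd3b3.

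With vehicle replicate 1 and replicate 1 at 100 mg/kg/day left out, a choice made after seeing the data, the Srd5a1 log2 fold change at 900 mg/kg/day was 1.24 ± 0.39 (edgeR adjusted p = 0.0404). The slope was then 0.133 (edgeR adjusted p = 0.0325). The 2 libraries left out have the 2 highest Srd5a1 levels of the 14, 8.93 and 7.18 CPM. Leaving them out by itself lowers the level at vehicle and at 100 mg/kg/day, so neither value tests a rise with dose. For Hsd3b3 the log2 fold change at 900 mg/kg/day was then -1.56 ± 0.18 (edgeR adjusted p = 0.000917). In that fit 2102 genes passed at 900 mg/kg/day, against 32 with all 14 libraries, and of the libraries it holds only the 2 at 900 mg/kg/day scored below -20. Without vehicle replicate 1 alone the log2 fold change at 900 mg/kg/day was 1.27 and did not pass (edgeR adjusted p = 0.344). The 3 slopes of ratios to Srd5a1 also passed without both libraries, with the same limit. Markers of liver, a tissue rich in Srd5a1 in the adult rat, summed to 3.77 to 10.05 CPM in the 4 libraries and to 1.47 to 15.1 CPM in the other 10, so the groups of libraries overlapped. The summed level of the interstitial cell markers Pdgfra, Nr2f2 and Tcf21 did separate them. It was 385 to 420 CPM in the 4 libraries and 241 to 336 CPM in the other 10. Most of that sum is Nr2f2, with group means of 194 to 307 CPM. Those of Pdgfra were 47.3 to 61.8 CPM and those of Tcf21 38.0 to 47.6 CPM. Tcf21 alone did not separate the libraries, with 41.3 ± 1.31 CPM (SD, n = 3) in vehicle litters and 46.0 ± 1.72 (n = 3) at 300 mg/kg/day. The part of interstitial cells in the values of Srd5a1 was not tested.

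**Figure D5:**
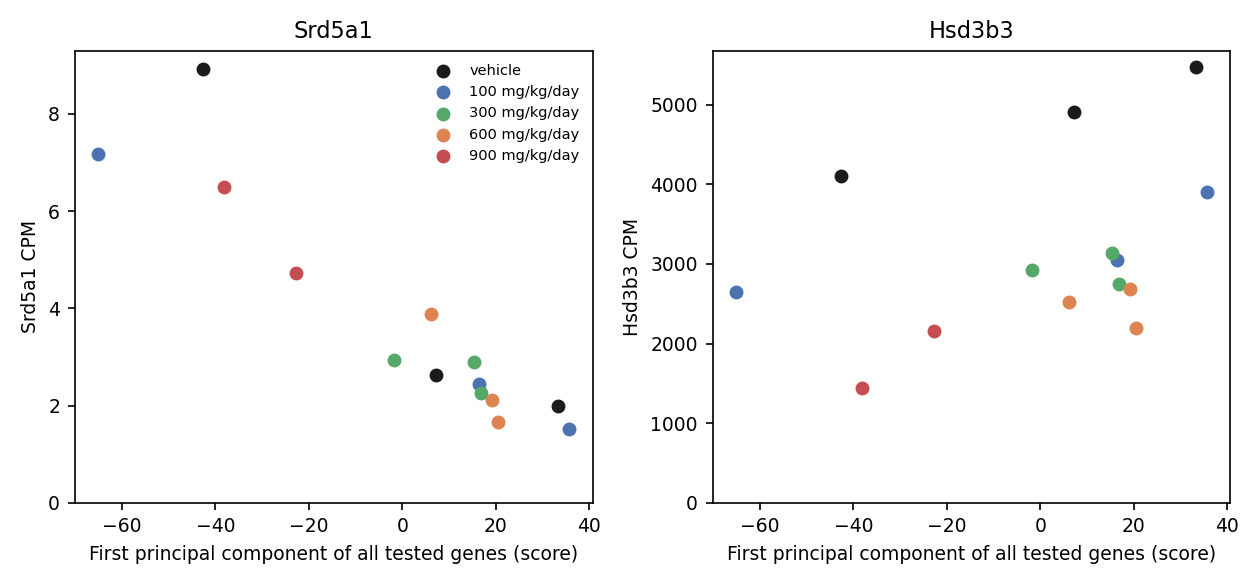
Level of Srd5a1 and of Hsd3b3 in CPM against the score of each library on the first principal component, coloured by dose group. The 4 libraries with scores below -20 have the 4 highest Srd5a1 levels, from 4.72 to 8.93 CPM, and lie from 1438 to 4100 CPM for Hsd3b3.

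The genes whose levels most resembled each member were different for Hsd3b3, Hsd17b3 and Srd5a1. Likeness was Pearson's r of log2 CPM over the 14 libraries among 9788 genes with a mean count of at least 20, given as a description, since all points share their libraries and doses. For Hsd3b3 the most alike after Hsd3b1 (r = 0.999) were Cyp11a1 (0.973), which makes the enzyme's substrate, Cyp17a1 (0.960), which acts beside it in the pathway, Inha (0.958), and Idh1 (0.955), the cytosolic isocitrate dehydrogenase that makes NADPH. For Hsd17b3 they were Kat14 (0.933), Tram1 (0.853), Ncbp3 (0.845), Smcr8 (0.843) and Cln3 (0.836), none of them an enzyme of steroid synthesis. For Srd5a1 they were Smg5 (0.977), Arid1b (0.972), Tmem39b (0.965), Ncoa7 (0.964) and Vrk1 (0.963). For the last gene the 4 libraries named above hold the 4 highest levels.

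The wider family was mostly without a call. Of 36 symbols of hydroxysteroid dehydrogenases, steroid reductases and related oxidoreductases, 29 were in the table and 21 were tested. Over these 21 genes 1 fell at 600, 1 at 900 mg/kg/day and 2 over dose, where 0.189%, 0.204% and 0.33% of all tested genes fell. All of these calls are the Hsd3b pair already described, and none rose. At 100 and 300 mg/kg/day edgeR called 0 of 21, where 0% and 0.0472% of all tested genes fell. There 2 and 4 of the 21 had an unadjusted p under 0.05 in edgeR, as did 3.4% and 3.65% of all tested genes. The Hsd3b pair makes up 2 of these at each dose. DESeq2 and limma-voom called 0 of 21 at both doses. The median log2 fold change was -0.08, -0.17, -0.18 and -0.06 at the rising doses, beside 0.01, -0.02, -0.02 and 0.02 over all tested genes.

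Hsd17b7, which acts as a 3-ketosteroid reductase in cholesterol synthesis, came nearest to a call among the rest. Its level was 53.9 ± 6.82 CPM (SD, n = 3) in vehicle litters, 45.8 ± 7.62 (n = 3), 35.8 ± 1.92 (n = 3), 33.7 ± 3.37 (n = 3) and 33.0 ± 3.11 CPM (n = 2) at the rising doses. The log2 fold change was -0.68 ± 0.15 at 600 and -0.71 ± 0.17 at 900 mg/kg/day, and neither passed in edgeR (adjusted p = 0.177 and 0.185), while both did in DESeq2 (adjusted p = 0.00957 and 0.00541). Hsd3b2 had 2.31 ± 0.23 CPM (SD, n = 3) in vehicle litters and 1.48 ± 1.48 (n = 2) at 900 mg/kg/day, with a log2 fold change of -0.70 ± 0.57 there that did not pass (edgeR adjusted p = 0.852). Srd5a3, the reductase that makes dolichol for protein glycosylation, had 58.8 ± 8.28 CPM (SD, n = 3) in vehicle litters and a log2 fold change of -0.12 ± 0.18 at 900 mg/kg/day that did not pass. Srd5a2, the main 5-alpha-reductase of the genital tract, had 0 to 6 counts a library and was not tested.

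Some other genes of testosterone synthesis fell as well. The list holds 11 tested genes, without the genes above. They are genes for cholesterol entry and the steps from cholesterol onward, together with the hormone receptor gene Lhcgr and the transcription factor gene Nr5a1. Of these, 4 fell at 600 and 5 at 900 mg/kg/day, where 0.189% and 0.204% of all tested genes fell. None rose at either dose. The median log2 fold change was -1.04 and -1.60, beside -0.02 and 0.02 over all tested genes. At both doses this median is the value of Lhcgr. At 900 mg/kg/day Fdxr (-0.53), Cyb5a (-0.66), Nr5a1 (-0.29) and Lhcgr (-1.60) did not pass in edgeR. Por (0.27) and Tspo (0.29) had positive values there and did not pass either. Star, which carries cholesterol into mitochondria, had a log2 fold change of -2.58 ± 0.30 at 900 mg/kg/day (edgeR adjusted p = 0.00275), Cyp11a1 -2.24 ± 0.31 (adjusted p = 0.00805) and Cyp17a1 -3.74 ± 0.51 (adjusted p = 0.00716). Beside these the -1.42 of Hsd3b3 was the smallest of the 4; the differences between them were not tested.

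All 5 fetal Leydig cell markers had negative log2 fold changes at each dose, as Hsd3b3 did, where 46.9% to 53.2% of all tested genes had. Their part in the fall of Hsd3b3 was not tested. Both litters at 900 mg/kg/day stand apart on the first principal component. At 900 mg/kg/day 3 of 5 fetal Leydig cell markers (Insl3, Lhcgr, Cyp11a1, Cyp17a1 and Star) fell, where 0.204% of all tested genes did. These 3 are Star, Cyp11a1 and Cyp17a1, the same calls as above, and Lhcgr did not pass (edgeR adjusted p = 0.506). The summed level of the 5 was 3536 to 7680 CPM in vehicle litters and 976 to 1217 CPM at that dose. It was 2156 to 4218 CPM at 100, 2208 to 3116 CPM at 300 and 1338 to 3207 CPM at 600 mg/kg/day. At these 3 doses 0, 1 and 2 of the 5 fell in edgeR, where 0%, 0.0472% and 0.189% of all tested genes did. Most of that sum is Insl3, a Leydig cell hormone, which had a mean of 3859 ± 1832 CPM (SD, n = 3) in vehicle litters and 844 ± 99.5 CPM (n = 2) at 900 mg/kg/day and did not pass (edgeR adjusted p = 0.108). The 3 interstitial cell markers summed to 295 to 385 CPM in vehicle litters and 412 to 419 CPM at 900 mg/kg/day, and edgeR, DESeq2 and limma-voom called 0 of the 3 there, with 0 at an unadjusted p under 0.05 in each. The summed level of 8 Sertoli cell markers was 732 to 964 CPM in vehicle litters and 793 to 906 CPM at 900 mg/kg/day, and edgeR, DESeq2 and limma-voom called 0 of the 6 that were tested there, with 1, 0 and 1 at an unadjusted p under 0.05. Of all tested genes 4.99% had an unadjusted p under 0.05 in edgeR at that dose. The adrenal cortex, which also expresses Hsd3b genes, was marked here only by Mc2r, the receptor for adrenocorticotropin, at no more than 1.08 CPM in any library.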

How the data were processed

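Reads were processed by the submitters. Their processing notes name STAR 2.7.8a, Partek, DESeq2 and the rat build rn7, without roles. The count table deposited by the authors holds estimated counts for 18174 genes in 14 libraries, with totals of 5558873 to 11272861; how they were estimated is not given in the sources used here. Of the values 83.6% are whole numbers (tolerance 1e-09); fractional ones were rounded for the tests. A second deposited table multiplies 16 genes, none of them described here, by an attenuation factor and was tested only as an alternative; another holds log2 values made by the authors from those adjusted counts and entered no test.

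Genes were filtered with filterByExpr, which kept 12719 genes with 99.9% of counts, scaled by TMM and fitted in 1 robust quasi-likelihood model (edgeR 4.0.16, R 4.3.3) that left 9 residual degrees of freedom; the common biological coefficient of variation was 0.232. The 4 doses were each set against vehicle, and the slope came from another fit with dose as a number. Adjusted p-values are Benjamini-Hochberg over all tested genes, threshold 0.05, two-sided. Ratios of pairs used log2 of the estimated counts plus 0.5. Ratios of Hsd3b rows used the values as deposited, without rounding.

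Replicate numbers follow accession order and only name litters. The genes and lists were chosen with earlier results of these data known, and some list genes are not reported here. All 4 genes are named in every library; of the lists, any detected gene may be named, and for likeness the 5 genes with the highest r. DESeq2 1.42.0 and limma 3.58.1 were used as alternatives, and the steps were tested on simulated data.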

Additional observations from a re-analysis of the deposited data

How the results depend on the processing

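Effects are log2 fold changes, or log2 units for each 100 mg/kg/day for slopes, and p-values are edgeR's adjusted p unless another tool is named. Hsd3b3 kept its direction under all alternatives. Its call at 600 mg/kg/day was lost with RLE size factors (-0.95, adjusted p = 0.0764), with upper quartile scaling (-0.93, 0.0884) and with only the 2 groups compared (-0.95, 0.0723), and leaving out a library gave -1.07 to -0.87. At 900 mg/kg/day it was lost with only the 2 groups compared (-1.44, 0.188), and leaving out a library gave -1.74 to -1.15. The Hsd3b1 slope was lost with no filter on low counts (-0.136, 0.0719) and with limma-voom (-0.135, 0.0796), and leaving out a library gave -0.156 to -0.122. Hsd17b3 changed sign with library totals only (-0.0034 at 600, 0.058 at 900 mg/kg/day, slope 0.0028) and with no filter (-0.024 at 300, -0.0075 at 600 and 0.0035 at 900 mg/kg/day); leaving out a library gave -0.103 to 0.094, -0.023 to 0.041, -0.011 to 0.076 and -0.099 to 0.063 at the rising doses and -0.0052 to 0.0044 for the slope, and it never passed. For Srd5a1 those ranges were -1.17 to 0.676, -1.10 to 0.236, -1.24 to 0.157, -0.060 to 1.27 and -0.037 to 0.080, with no call. Vehicle replicate 1 and replicate 1 at 100 mg/kg/day, the litters with the 2 highest Srd5a1 levels, were left out together after seeing the data. Srd5a1 then stood at 0.238, 0.160 and 1.24 at 300, 600 and 900 mg/kg/day with a slope of 0.133. The last 2 passed, in a fit that removes the highest Srd5a1 levels from the low end of dose. Hsd3b1 passed at 900 mg/kg/day in that fit (-1.54, 0.00995). The same choice moved the slopes of the log2 ratios to Srd5a1 to -0.264 for Hsd3b1, -0.269 for Hsd3b3 and -0.128 for Hsd17b3, all past the threshold; leaving out 1 library gave -0.214 to -0.101, -0.218 to -0.105 and -0.085 to 0.017, and those of Hsd3b1 and Hsd3b3 passed without vehicle replicate 1 or without replicate 1 at 100 mg/kg/day. Slopes of Hsd3b3 and Hsd3b1 to Hsd17b3 passed under all alternatives run. Of all genes, 0, 6, 28, 32 and 54 passed at the rising doses and over dose; DESeq2 gave 2, 27, 59, 91 and 119, the 2 libraries left out 39, 66, 2102 and 1494 from 300 mg/kg/day on, RLE 15 and upper quartile 13 at 600 mg/kg/day, only the 2 groups 8 at 600 and 4 at 900 mg/kg/day, and leaving out 1 library 0 to 9, 6 to 50, 0 to 50 and 30 to 76 from 300 mg/kg/day on. DESeq2 also called Hsd17b7 at both high doses and in the slope, so that 2, 2 and 3 of 21 family genes passed. The cause of these changes was not tested. The 9 to 90 counts of Srd5a1 and the 2 litters at 900 mg/kg/day limit precision. No paired analysis was run, since each litter comes from a dam given 1 dose and the labels name no matching of litters between doses.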

Other observations

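Fixed ratios like that of Hsd3b1 to Hsd3b3 were not limited to this pair. Of 1059 rows that were fractional in all 14 libraries and had a mean count of at least 5, 95 (8.97%) had a partner row with an SD of the natural log of the ratio under 0.01. A comparison that counts called genes would count both rows of such a pair.

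The row steadiest beside Hsd17b3 was Kat14, a histone acetyltransferase gene on chromosome 3. Kat14 had 847 to 1910 counts and stood at 52.9 to 57.6 counts for each 100 of Hsd17b3 over the 14 libraries. The coefficient of variation of this ratio was 2.76%, beside 3.52% from counting alone if the reads of both rows were independent. Kat14 was picked out of 12608 rows for this steadiness, and its part in any comparison was not tested.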
